A study of Rattus norvegicus with 23 samples.

Results

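The report describes NRK-52E cells, an established epithelial line from rat kidney, after incubation at pH 6.0 and at pH 7.4. Every sample whose label gives the cell line as NRKE was taken, which made 12 of the 23 rat samples used here. The study asked how an acidic environment outside the cell changes the transcriptome of cells that are not tumour cells. Cells were first held for 24 h in medium without serum and then for 48 h at either pH, the acidic medium having been set with hydrochloric acid, and poly(A) RNA was sequenced. The other 11 samples came from NRK-49F cells, a fibroblast line from the same organ, handled in the same way. Each pH of NRK-52E cells was represented by 6 samples, and the labels divided these into sample group 1 and sample group 3, with 3 samples of each pH in each. At pH 7.4 the replicates were A021, A022 and A023 in sample group 1 and A033, A034 and A035 in sample group 3. At pH 6.0 they were A024, A025 and A026 in sample group 1 and A036, A037 and A038 in sample group 3. The study speaks of biological samples and the labels do not say whether they came from separate cultures, so all p-values here measure the spread between these samples.

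Total counts per sample ran from 17108547 to 32492245 at pH 7.4 and from 16657666 to 33690997 at pH 6.0. Levels are given as FPM, which is CPM after TMM scaling of the libraries over the 12 samples, and are not corrected for gene length. Of 26 listed epithelial markers, 14 to 17 had at most 3 counts in any given NRK-52E sample. Cdh1 (E-cadherin), Epcam, Krt18, the claudin Cldn1 and the kidney transcription factors Pax2 and Pax8 were at or near 0, and Cdh1 did not exceed 0.349 FPM in any sample when scaled over all 23 samples. Other markers of the list were present, among them Krt8 (195 to 650 FPM on that scale), the junctional adhesion molecule F11r (252 to 366 FPM) and cingulin, Cgn (30.1 to 65 FPM). In NRK-49F cells F11r reached 30.7 FPM at most and Cgn 3.72 FPM, whereas Krt8 was at 438 to 1208 FPM there, and the desmosome gene Dsp was at 41.7 to 77.6 FPM against 6.04 FPM at most in NRK-52E cells. The line is therefore called by its name below, since several defining epithelial markers were not detected. Of the leukocyte and endothelial lists, only Cd14 (56.4 to 165 FPM) and Tek (up to 21 FPM) exceeded 10 FPM in any NRK-52E sample, and Ptprc, Adgre1, Kdr and Emcn were at 0 in all 12.

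Some libraries stood apart before any comparison. Replicates A021, A022 and A033, all at pH 7.4, carried signal of fibroblast genes. Col1a2, a chain of type I collagen that NRK-49F cells expressed at 2930 FPM or more, was at 54.3, 15.8 and 11.3 FPM in these 3 samples and at 0.432, 0.68 and 0.527 FPM in A023, A034 and A035. It ranged from 0.0599 to 0.727 FPM at pH 6.0. The receptor Pdgfra was at 4.86, 2.26 and 1.7 FPM in A021, A022 and A033 and at 0.708 to 0.906 FPM in the other pH 7.4 samples. Over 14 fibroblast markers, the median share of the NRK-49F level was 2.2% in A021, 1.07% in A022 and 1.01% in A033, against 0.899% in A023, 0.33% in A034, 0.213% in A035 and 0.276 to 0.669% at pH 6.0. The mean share was 0.953% at pH 7.4 and 0.464% at pH 6.0. Taken as a mean over the markers, it was 46.4% and 47.5%, with Col3a1 alone at 385% of the NRK-49F level in A021.

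**Figure D1:**
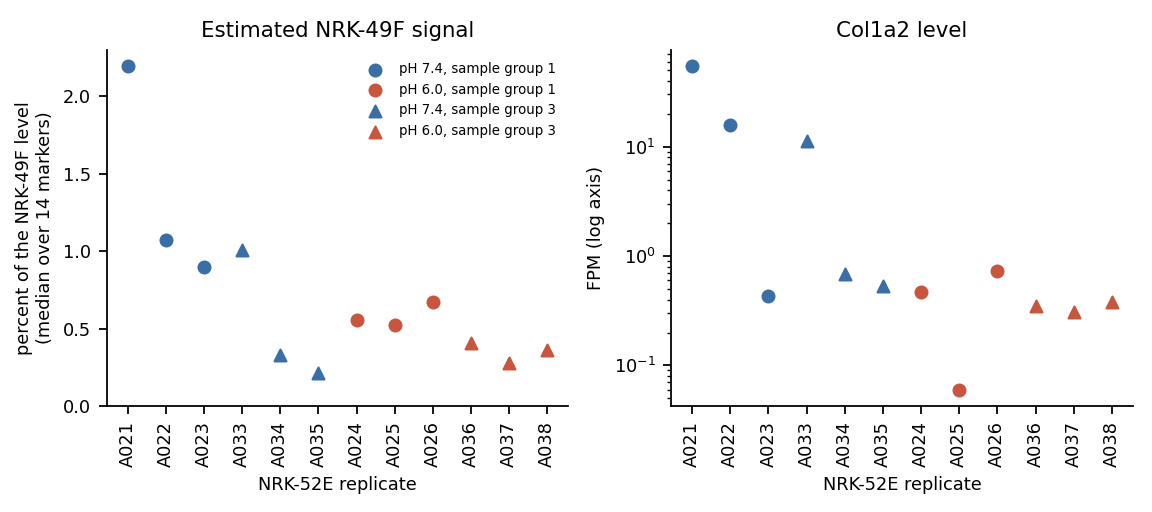
Signal of NRK-49F fibroblasts in each NRK-52E sample, as the median share of the NRK-49F level over 14 markers in percent (left) and as the level of Col1a2 in FPM on a log axis (right), with colours for pH and shapes for sample groups. A021, A022 and A033 are the 3 samples with Col1a2 above 10 FPM.

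The whole list of fibroblast markers behaved differently from Col1a2, and its member with the most counts in NRK-52E cells was Col3a1. The summed level of its 22 genes, scaled over all 23 samples, was 5981, 6200 and 8709 FPM in A021, A022 and A033 and 6566, 9515 and 8479 FPM in A023, A034 and A035. At pH 6.0 it was 2560, 2647 and 2770 FPM in sample group 1 and 3801, 3707 and 3682 FPM in sample group 3. Thy1, Dcn, Tcf21 and Meox1 were at 0 in all 12 samples. A fit with an estimate of the carried signal subtracted from the counts had 9317 regulated genes, 4779 of them lower. Several results that moved without the 3 libraries are also given without them, except where the remaining controls had at most 3 counts each. Another pH 7.4 library, A035, differed in another way. It was alone at the top of its group of 6 for 1189 genes and alone at the bottom for 416, against at most 81 and 32 genes for any other sample, and a principal component with 6.95% of the variance set it apart. The first component, with 68.9% of the variance, separated the pH values, and the second, with 11.3%, separated the sample groups.

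Proximal and distal tubule cells face acid loads as part of their work. In metabolic acidosis, proximal tubule cells are known to take up more glutamine and release its nitrogen as ammonium, and they recover filtered bicarbonate. Several receptors and ion channels respond to protons, and lysosomes hold hydrolases that work best in acid.

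After 48 h at pH 6.0 most of the measured transcriptome of NRK-52E cells had changed. Of 13794 genes with sufficient counts, 9366 were regulated (67.9%, edgeR quasi-likelihood test with the sample group as a block, adjusted p under 0.05), 4550 higher (33%) and 4816 lower (34.9%) than at pH 7.4. With so high a background, a list of genes is read below by its direction and size more than by its number of calls, and each list's median log2 fold change stands against -0.01 over all tested genes. The median absolute log2 fold change of the regulated genes was 0.75 (quartiles 0.45 and 1.24). Changes of at least 2 on the log2 scale were found in 299 genes that were higher and 618 that were lower. For 5608 genes (40.7% of those tested) the values of the 6 samples at one pH did not overlap with those at the other. Without A021, A022 and A033, 8076 of the 9366 genes passed the test in the same direction, 1269 did not pass and 0 passed in the opposite direction. In bulk RNA, fewer cells of a kind and less RNA per cell cannot be told apart.

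**Figure D2:**
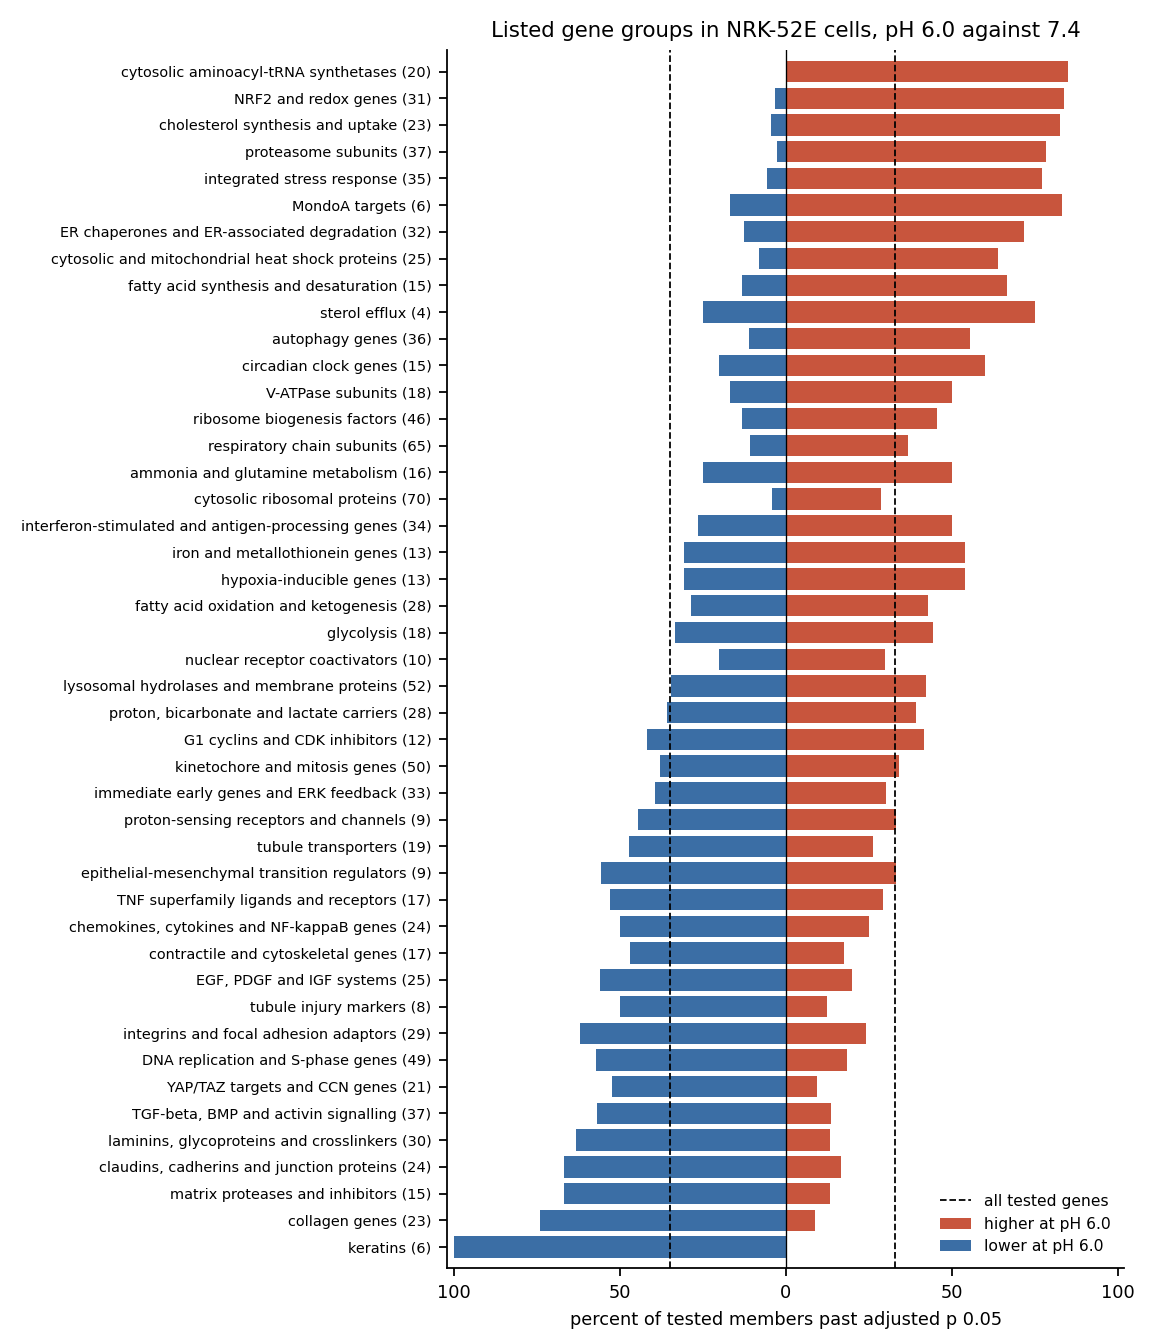
Share of the tested members of each gene list that were higher (right) or lower (left) at pH 6.0 in NRK-52E cells, in percent, with the number of tested members in parentheses and dashed lines for all tested genes (33% and 34.9%). Lists of protein folding, amino acid charging, redox and cholesterol genes lie at the top and lists of matrix, junction and keratin genes at the bottom.

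The largest rise, among regulated genes averaging 5 FPM or more whose pH values did not overlap and whose call was the same without A021, A022 and A033, was that of Ifi27l2b (ENSRNOG00000026605), a member of a family of small interferon-inducible mitochondrial proteins. Its level was 2.17 to 6.8 FPM at pH 7.4 (median 2.68) and 116 to 381 FPM at pH 6.0 (median 208), a log2 fold change of 5.94 (standard error 0.25, edgeR adjusted p = 1.2e-10). The lowest acid sample was far above the highest control. Chrne (ENSRNOG00000003777), the epsilon subunit of the muscle acetylcholine receptor, went from 1.41 to 4.08 FPM (median 3.19) to 65.8 to 92.2 FPM (median 89.3), a log2 fold change of 4.89 (standard error 0.16, edgeR adjusted p = 9.0e-12). X4930544D05Rik (5.16), the serine protease gene Prss46 (4.79), the phospholipase C gene Plch2 (4.62) and the muscle intermediate filament gene Des (4.43) rose by similar amounts on the log2 scale. So did the receptors Lrp8 (4.74) and Olr1 (4.03), which bind apolipoproteins or modified lipoproteins. Cdkn1a, an inhibitor of cyclin-dependent kinases, went from 13.5 to 22.6 FPM (median 17.9) to 209 to 610 FPM (median 410), a log2 fold change of 4.34 (standard error 0.21, edgeR adjusted p = 3.0e-10). Its acid samples split by sample group, with 209 to 229 FPM in sample group 1 and 591 to 610 FPM in sample group 3.

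The largest falls chosen in the same way were led by Tnr (log2 fold change -4.64), which encodes the matrix protein tenascin-R, and Aldh3a1 (-4.47), an aldehyde dehydrogenase. Aldh3a1 was at 52.9 to 158 FPM at pH 7.4 (median 69.3) and at 2.08 to 6.86 FPM at pH 6.0 (median 3.09, standard error of the log2 fold change 0.21, edgeR adjusted p = 3.1e-10). Fmod (ENSRNOG00000003183), which encodes fibromodulin, a proteoglycan that binds collagen fibrils, fell from 298 to 486 FPM (median 407) to 18.7 to 32.1 FPM (median 28), a log2 fold change of -3.85 (standard error 0.12, edgeR adjusted p = 9.0e-12). The highest acid sample was far below the lowest control. Selp (P-selectin, -4.28), Mgp (matrix Gla protein, an inhibitor of calcification, -3.86), the transcription factor Hlf (-3.82), Poteg (-3.81), Gas7 (-3.66) and Fam180a (-3.63) were also among the 10 largest. Without A021, A022 and A033 the log2 fold changes were -4.58 for Tnr, -4.24 for Aldh3a1 and -3.94 for Fmod.

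Genes of cholesterol synthesis and uptake rose together. Of 23 tested members, 19 were higher and 1 was lower, 19 did not overlap between the pH values, and the median log2 fold change was 1.73. Hmgcs1, an early enzyme of the pathway, was at 27 to 73.9 FPM at pH 7.4 (median 41.8) and at 139 to 275 FPM at pH 6.0 (median 214), a log2 fold change of 2.19 (standard error 0.10, edgeR adjusted p = 3.0e-10). Insig1, which retains the sterol sensor in the endoplasmic reticulum, was at 113 to 144 FPM (median 129) and at 635 to 786 FPM (median 697), a log2 fold change of 2.45 (standard error 0.06, edgeR adjusted p = 1.3e-12). Both genes were higher in each of the 6 acid samples than in any control. Sqle, which oxidises squalene, had a log2 fold change of 2.13, and Srebf2, the transcription factor that drives these genes, one of 1.52. Scap, which escorts that factor to the Golgi, was the member that fell (-0.47). Without the 3 libraries that carried fibroblast signal, the counts were again 19 and 1, with a median of 1.60.

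Of 15 genes of fatty acid synthesis and desaturation, 10 were higher and 2 lower (median 0.72). Fasn, the fatty acid synthase, went from 101 to 155 FPM (median 120) to 297 to 450 FPM (median 344), a log2 fold change of 1.53 (standard error 0.11, edgeR adjusted p = 2.2e-08), with no overlap. Acss2, which makes acetyl-CoA from acetate, rose by 2.04 on the log2 scale, while Acaca, which makes malonyl-CoA, was at 0.05 and did not pass the test (edgeR adjusted p = 0.77). Its response differed between the sample groups, with 0.42 in group 1 and -0.36 in group 3 (edgeR adjusted p = 0.017 for the difference). The elongase Elovl7 was the largest fall of the list (-3.06). Among 4 genes of sterol efflux, 3 were higher and 1 lower (median 0.67). Apoe, the apolipoprotein that carries sterol out of cells, had a log2 fold change of 1.02. The exporter Abca1 had one of -0.70, which did not pass the test without A021, A022 and A033 (-0.52). In fatty acid oxidation and ketogenesis, 12 of 28 were higher and 8 lower, with a median of 0.09 that turned to -0.04 under upper quartile scaling. Cpt1a, which admits fatty acids to mitochondria, fell by 0.72 on the log2 scale, while Pdk4, a kinase that shuts off pyruvate dehydrogenase, rose by 1.54.

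The genes of the integrated stress response, in which phosphorylation of a translation factor raises ATF4, were largely higher, 27 of 35 tested against 2 lower (median 0.63). Atf4 itself was at 638 to 814 FPM at pH 7.4 (median 708) and at 1057 to 1545 FPM at pH 6.0 (median 1272), a log2 fold change of 0.82 (standard error 0.09, edgeR adjusted p = 1.8e-06). Trib3, a pseudokinase induced late in this response, was at 17.7 to 25.2 FPM (median 22.3) and at 83.9 to 200 FPM (median 135), a log2 fold change of 2.58 (standard error 0.20, edgeR adjusted p = 4.1e-08). The pH values did not overlap for either gene, and the Trib3 samples at pH 6.0 formed a lower trio in sample group 1 and a higher trio in sample group 3. The transcription factors Atf3 (3.05 to 5.04 FPM at pH 7.4 and 11.1 to 22.5 FPM at pH 6.0) and Ddit3 (log2 fold change 1.39) and the proline synthesis gene Pycr1 (2.73) also rose. Asns, which makes asparagine, and Eif4ebp1, which restrains cap-dependent translation, had log2 fold changes of 0.78 and 0.82. Psat1, an enzyme of serine synthesis that is commonly listed with these genes, went the other way (-0.70), from 71.4 to 84.7 FPM (median 76.8) to 42.3 to 54.8 FPM (median 47.2). Phgdh, the step before it, was at 0.25, and without the 3 libraries at 0.19, which did not pass the test.

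The cytosolic aminoacyl-tRNA synthetases, which load amino acids onto their tRNAs, moved in a single direction, with 17 of 20 higher and 0 lower (median 0.65). Under upper quartile scaling 17 were higher and 1 was lower. Eprs, which charges glutamate and proline, went from 330 to 401 FPM (median 381) to 892 to 1138 FPM (median 1012), a log2 fold change of 1.42 (standard error 0.08, edgeR adjusted p = 2.0e-09). Gars (1.14), Wars1 (1.10) and Aars1 (0.66) rose as well, all 3 without overlap between the pH values.

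Since these genes moved together, their promoters were searched for the ATF4 element TGATGNAAT on both strands, from 250 bases before to 50 bases after the start of the gene (RefSeq, assembly GRCr8). Of 61 members of both lists, 48 had a promoter sequence and 4 of these held the element, those of Pycr1, Aars1, Iars1 and Fgf21, against 1.05% of 27457 promoters of all genes. Iars1 and Fgf21 are named because of this match, after their values were seen, and had log2 fold changes of 0.76 (edgeR adjusted p = 1.7e-06) and 1.70 (edgeR adjusted p = 1.0e-05). The same search found the sterol element TCACNCCAC in 0 of 16 promoters of the cholesterol list and in 1 of 48 of the stress and synthetase lists (1.13% of all promoters). The antioxidant element TGACNNNGC was in 15 of 48 promoters of the stress and synthetase lists and in 3 of 16 of the cholesterol list. It was in 11 of 32 of the NRF2 and redox list and in 11 of 41 of the lysosomal list, both described below. Of all promoters 12.2% held it. A match is a description of letters and no evidence of binding. The stretches around the ATF4 element are given with it in capitals, in the direction of the gene, so that the copies in Aars1, Iars1 and Fgf21 read as the reverse complement.
Pycr1, chr10:106420895-106420983, minus strand: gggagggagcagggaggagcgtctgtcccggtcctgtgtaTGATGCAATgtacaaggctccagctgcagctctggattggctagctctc
Aars1, chr19:55908329-55908417, plus strand: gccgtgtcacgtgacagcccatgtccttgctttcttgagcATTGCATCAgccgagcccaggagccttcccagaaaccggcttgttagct
Iars1, chr17:15193629-15193717, minus strand: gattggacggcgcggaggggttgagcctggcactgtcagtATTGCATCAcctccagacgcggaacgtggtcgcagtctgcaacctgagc
Fgf21, chr1:105221472-105221560, minus strand: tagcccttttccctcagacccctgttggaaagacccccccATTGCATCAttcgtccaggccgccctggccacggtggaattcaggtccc

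Protein folding and degradation in the endoplasmic reticulum followed the same direction. Of 32 chaperone and degradation genes, 23 were higher and 4 lower (median 0.57). Hspa5, the main chaperone of this compartment, was at 839 to 1046 FPM at pH 7.4 (median 923) and at 1217 to 4063 FPM at pH 6.0 (median 2472), a log2 fold change of 1.25 (standard error 0.19, edgeR adjusted p = 4.3e-05). All acid samples lay above the controls, those of sample group 1 narrowly (log2 fold change 0.57) and those of sample group 3 by far (1.91), and the difference between the sample groups passed its own test (edgeR adjusted p = 2.9e-05). Sel1l, part of the machinery that removes misfolded proteins, had a log2 fold change of 1.58, and Xbp1, whose spliced form drives chaperone genes, one of 0.74. Edem1, which marks glycoproteins for removal, fell (-0.74). Heat shock proteins of the cytosol and mitochondria were higher in 16 of 25 cases and lower in 2 (median 0.40), with Hspb8, a small heat shock protein, at 1.76, and at 2.69 without A021, A022 and A033. Hspa2 was at -1.08, at -1.75 without these 3, and did not pass when A036, A037 or A038 was left out. It was at -0.14 in sample group 1 and -2.32 in sample group 3 (edgeR adjusted p = 0.013 for the difference). Of 37 proteasome subunits 29 were higher and 1 lower (median 0.36). The changes were small in most, the largest being that of Psmd8 (1.29), and Psmc3 was the subunit that fell (-0.70). Without A021, A022 and A033, 21 subunits were higher and 1 lower (median 0.37).

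Of 31 tested genes in a list of NRF2 targets and other redox genes, 26 were higher and 1 lower (median 0.75). Without the 3 libraries 25 were higher and 0 lower (median 0.80). NRF2 is a transcription factor that answers oxidants and electrophiles. Nqo1, a quinone reductase, was at 144 to 226 FPM at pH 7.4 (median 167) and at 399 to 693 FPM at pH 6.0 (median 546), a log2 fold change of 1.63 (standard error 0.14, edgeR adjusted p = 1.2e-07). Txnrd1, which reduces thioredoxin, was at 114 to 137 FPM (median 128) and at 323 to 460 FPM (median 386), a log2 fold change of 1.61 (standard error 0.07, edgeR adjusted p = 1.0e-10). Neither gene showed any overlap. Gclm, the regulatory subunit for glutathione synthesis, had a log2 fold change of 2.21 and Gpx2, a glutathione peroxidase, one of 3.01 at a low level (at most 5.13 FPM). Hmox1, which breaks down haem, did not pass the test (-0.53, edgeR adjusted p = 0.15) and was at -1.37 in sample group 1 and 0.18 in sample group 3 (edgeR adjusted p = 0.045 for the difference). Gpx1 fell (-0.40), and without the 3 libraries it was at -0.36, which did not pass the test. In the iron list, 7 of 13 were higher and 4 lower (median 0.32). Ftl1, the ferritin light chain, went from 1167 to 1950 FPM (median 1435) to 6674 to 10706 FPM (median 8272), a log2 fold change of 2.54 (standard error 0.14, edgeR adjusted p = 1.4e-09). The gene has many near-identical copies and reads that map to several places were counted, so its level may include theirs. The ferritin heavy chain gene Fth1 rose less (0.46), and Tfrc, the transferrin receptor that imports iron, fell by 1.15 on the log2 scale.

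Glucose metabolism changed by gene more than as a group. In glycolysis 8 of 18 genes were higher and 6 lower, and the median of 0.07 turned to -0.05 under upper quartile scaling. Aldoc, an aldolase, was at 4.31 to 6.79 FPM at pH 7.4 (median 5.51) and at 25 to 46 FPM at pH 6.0 (median 37.7), a log2 fold change of 2.68 (standard error 0.10, edgeR adjusted p = 5.0e-11), without overlap. Hexokinase Hk2 (1.86) and Pfkfb3 (1.25), which makes the activator of phosphofructokinase, rose, while Pfkm (-1.14), a subunit of phosphofructokinase itself, and Ldha (-0.75), which makes lactate, fell. Of 6 targets of the glucose and acid responsive factor MondoA, 5 were higher and 1 lower (median 0.51), with Arrdc4 at 1.66, Txnip at 0.43 and Arrdc3 at -0.68. In the hypoxia list 7 of 13 were higher and 4 lower (median 0.25). P4ha1, a collagen prolyl hydroxylase, rose by 1.15 and Vegfa by 0.90, and the lysyl oxidase homologue Loxl2 fell by 1.56 on the log2 scale.

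For respiratory chain subunits and ribosomal proteins the count depended on single libraries. Of 65 respiratory chain subunits 24 were higher and 7 lower (median 0.17), which became 38 and 6 without A035 and 16 and 6 without A021, A022 and A033 (median 0.12). Cycs, the electron carrier cytochrome c, was an exception in size (1.31, from 80.5 to 118 FPM with median 93.4 to 174 to 348 FPM with median 240). Of 70 cytosolic ribosomal proteins 20 were higher and 3 lower (median 0.15). Here A035 stood far above the other controls, as with Rps9 at 1738 FPM against 1005 to 1188 FPM. Without A035, 41 were higher and 3 lower, without the other 3 libraries 5 and 3, and under upper quartile scaling 8 and 5. These genes have many processed copies in the genome, which the counting of reads with several map positions can mix in. Of 46 factors that build ribosomes, 21 were higher and 6 lower (median 0.20), with Wdr75 at 1.15 and Polr1a, the largest subunit of RNA polymerase I, at -1.12.

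Lysosomal genes split. Of 52 hydrolases and membrane proteins 22 were higher and 18 lower (median -0.06), and 30 did not overlap. The median was 0.16 in sample group 1 and -0.30 in sample group 3. In the test of the interaction 18 of the 52 passed, against 15% of all tested genes. The share was larger in other lists, such as the integrated stress response (15 of 35) and TGF-beta, BMP and activin signalling (15 of 37). Ctsk, a protease that is active in acid, was at 1.35 to 3.75 FPM at pH 7.4 (median 2.48) and at 10.2 to 21.1 FPM at pH 6.0 (median 12.3), a log2 fold change of 2.57 (standard error 0.26, edgeR adjusted p = 5.7e-07). Its relative Ctsh moved oppositely, from 11.1 to 17.4 FPM (median 14.7) to 2.15 to 8.74 FPM (median 4.64), a log2 fold change of -1.72 (standard error 0.23, edgeR adjusted p = 1.2e-05). Neither overlapped between the pH values. The cathepsins Ctsb (0.31) and Ctsd (0.26) passed the test with all 12 samples, and without the 3 libraries they were at 0.24 and 0.20 and did not pass. Tfeb, the transcription factor for lysosome genes, fell by 0.60 on the log2 scale. The CLEAR element TCACGTGA that this factor is known to bind was in 5 of 41 promoters of the list and in 2 of 48 of the stress and synthetase lists, against 0.867% of all promoters of the same length. The genes were Lamp1 (with 2 copies), Ctsd, Mcoln1, Cln3 and Galc, the last 2 named after their values were seen. They did not share a direction, with log2 fold changes of 0.38, 0.26, -0.22, -0.69 and -0.57, of which that of Mcoln1 did not pass the test. Lamp1 and Cln3 are shown as a member that rose and a member that fell, in the direction of the gene, with 1 copy of the element in capitals and the second copy in Lamp1 in lower case.
Lamp1, chr16:83075082-83075169, minus strand: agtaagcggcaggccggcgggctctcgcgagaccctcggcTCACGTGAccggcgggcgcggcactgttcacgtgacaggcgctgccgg
Cln3, chr1:190597921-190598008, minus strand: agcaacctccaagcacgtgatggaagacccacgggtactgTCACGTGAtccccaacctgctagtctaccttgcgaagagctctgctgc

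The proton pump of lysosomes, the V-ATPase, had 9 of 18 subunits higher and 3 lower (median 0.18). The largest rise was that of Atp6v1d, part of the rotor shaft, which had a median of 90 FPM at pH 7.4 (lowest 85) and was at 296 to 478 FPM at pH 6.0 (median 373), a log2 fold change of 2.02 (standard error 0.09, edgeR adjusted p = 1.5e-10). All acid samples exceeded the highest control more than 2-fold. Tcirg1 (0.82) and Atp6v1a (0.36) rose less, and Atp6v1c2, a subunit isoform of low level, fell by 3.82. Autophagy genes were higher in 20 of 36 cases and lower in 4 (median 0.26). Sqstm1, the receptor that brings cargo to autophagosomes, had a log2 fold change of 1.19, Wipi1 of 1.05, Gabarapl1 of 0.65 and Map1lc3b of 0.48, and each of these 4 genes was higher in all 6 acid samples than in any control.

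**Figure D3:**
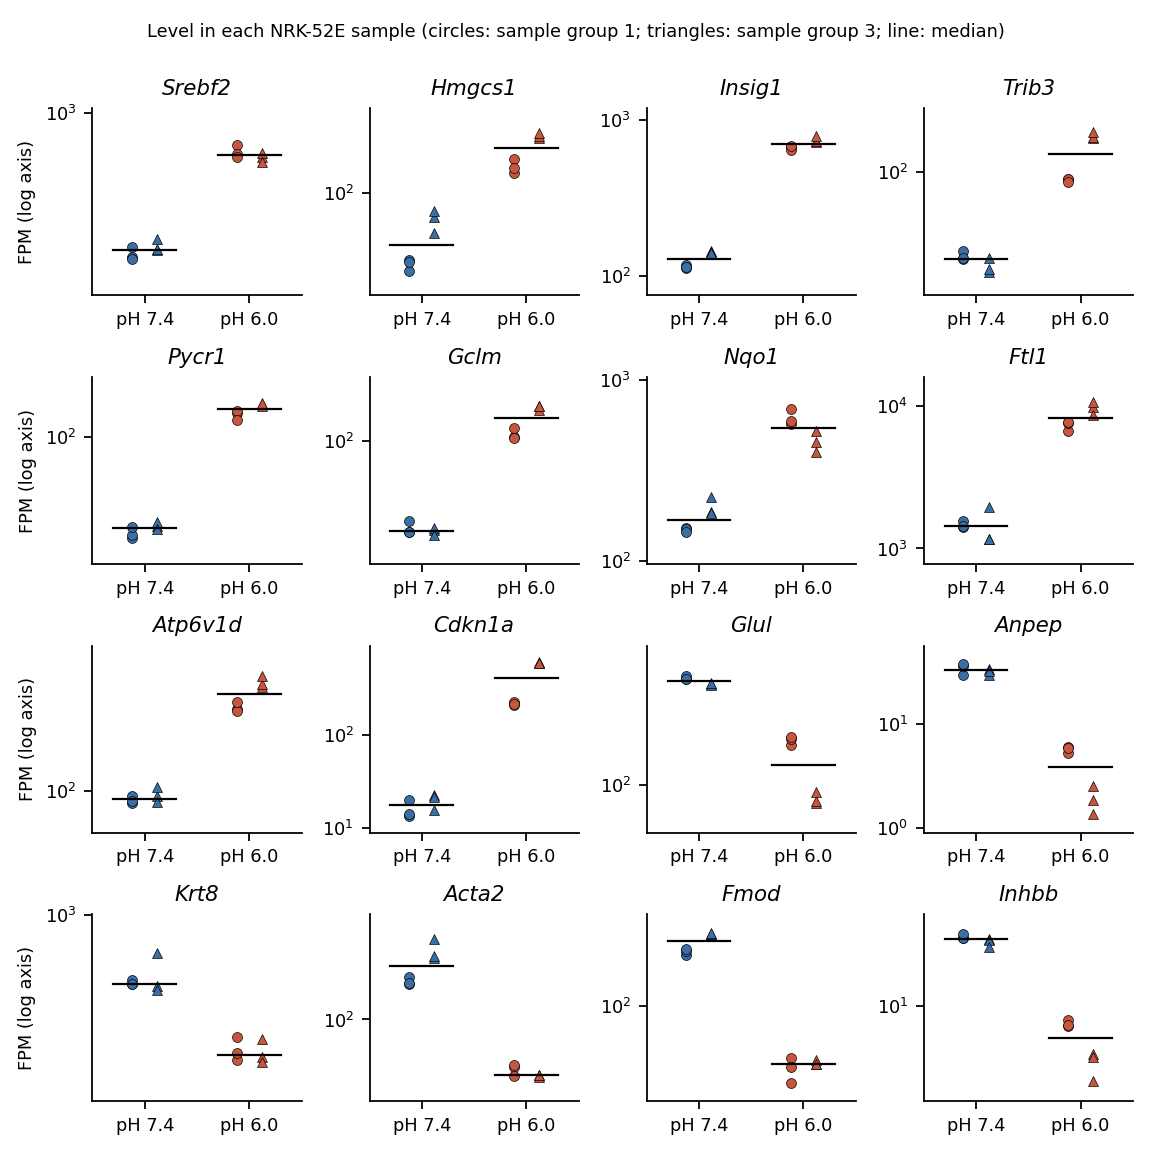
Level of 16 genes in each NRK-52E sample in FPM on log axes, with circles for sample group 1, triangles for sample group 3 and a line for the median of each pH. The pH values do not overlap for any of the 16. In some genes the acid samples of sample group 3 lie farther from the controls than those of sample group 1. Cdkn1a, Trib3, Glul, Anpep and Inhbb are among them.

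Genes by which the tubule handles acid moved in a mixed way. Of 16 genes of ammonia and glutamine metabolism 8 were higher and 4 lower (median 0.34). Glul, which fixes ammonium into glutamine, was at 388 to 439 FPM at pH 7.4 (median 408) and at 78.6 to 192 FPM at pH 6.0 (median 131), a log2 fold change of -1.72 (standard error 0.15, edgeR adjusted p = 1.3e-07). The pH values were apart, and Glul was lowest in the acid samples of sample group 3. Slc1a5, a glutamine importer, rose by 1.17, whereas Glud1, which frees ammonium from glutamate, fell by 0.48 on the log2 scale. Pck1, the cytosolic enzyme of gluconeogenesis, and the glutamine transporter Slc38a3 had too few counts to be tested.

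Among 28 carriers of protons, bicarbonate and lactate, 11 were higher and 10 lower (median -0.03). Slc4a7, a sodium bicarbonate cotransporter, had a log2 fold change of 1.53 (0.996 to 6.53 FPM, median 2.6, at pH 7.4 and 5.78 to 10.2 FPM, median 8.79, at pH 6.0), and its ranges met at their ends. Hvcn1, a voltage-gated proton channel, rose by 1.63. The lactate carriers Slc16a1 (-0.46), Slc16a3 (-1.35) and Slc16a4 (-1.67) all fell. Of 9 tested proton sensors 3 were higher and 4 lower (median -0.11). They included Trpv1, a cation channel opened by acid and heat (1.23), P2rx2 (-1.96) and Asic1, which did not pass the test (-0.11, edgeR adjusted p = 0.54). Of 19 tubule transporters and brush border enzymes 5 were higher and 9 lower (median -0.35). Anpep, an aminopeptidase of the brush border, went from 29.3 to 37.3 FPM (median 32.7) to 1.35 to 5.93 FPM (median 3.86), a log2 fold change of -3.22 (standard error 0.23, edgeR adjusted p = 1.4e-08). Atp1b1, the beta subunit of the sodium pump, fell by 1.71 on the log2 scale. Of 8 injury markers 1 was higher and 4 were lower (median -0.53). Lcn2 (NGAL) fell by 2.89, from 4.65 to 7.95 FPM (median 6.81) to 0.474 to 1.23 FPM (median 0.862). Spp1 (osteopontin) followed the fibroblast signal, at 26.5, 9.83 and 19.9 FPM in A021, A022 and A033 and 0.82 to 2.04 FPM in the other controls. Its log2 fold change was -3.19 with all samples and -0.54 without those 3, where it did not pass the test.

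Cell cycle genes did not move as a block. Of 50 kinetochore and mitosis genes 17 were higher and 19 lower (median -0.23), and of 49 genes of DNA replication 9 were higher and 28 lower (median -0.47). Cdk1, the kinase of mitotic entry, was at 17.9 to 31.9 FPM at pH 7.4 (median 23) and at 50.8 to 83.1 FPM at pH 6.0 (median 63.2), a log2 fold change of 1.46 (standard error 0.07, edgeR adjusted p = 3.7e-10). Its partner cyclin Ccnb1 had a log2 fold change of -0.86 (3.59 to 13.1 FPM, median 8.39, at pH 7.4 and 1.98 to 7.92 FPM, median 5.11, at pH 6.0). Cdk1 values lay apart, while those of Ccnb1 overlapped. Cenpm, of the inner kinetochore, rose by 2.46, and Cenpf, of its outer part, fell by 1.53 on the log2 scale. Mki67, the usual marker of cycling cells, fell by 1.34. The replicative helicase gene Mcm2 (-0.66) and Gins3 (-2.28) fell, and Pcna (0.39) and Rpa2 (0.98) rose. Of 12 tested cyclins, kinases and kinase inhibitors of the G1 list, 5 were higher, with Cdkn1a among them, and 5 lower (median 0.13), with Cdkn1b (-0.28), Cdkn2c (-1.29) and the cyclin Ccnd1 (-0.38) among them. Without A021, A022 and A033, 12 of the mitosis genes were higher and 19 lower (median -0.27).

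Structural genes of epithelia were mostly lower. All 6 tested keratins were lower (median -1.61). Krt8 was at 458 to 673 FPM at pH 7.4 (median 489) and at 217 to 282 FPM at pH 6.0 (median 234), a log2 fold change of -1.08 (standard error 0.10, edgeR adjusted p = 3.4e-07). The pH values were apart in every sample. Krt15 fell by 2.31. Of 24 claudins, cadherins and junction proteins 4 were higher and 16 lower (median -0.45). Dsp, the desmosome anchor desmoplakin, went from 3.98 to 6.29 FPM (median 5.81) to 0.175 to 0.898 FPM (median 0.569), a log2 fold change of -3.34 (standard error 0.23, edgeR adjusted p = 1.2e-08). Gja1 (connexin 43) fell by 1.54 and Cldn19, a claudin of tight junctions, by 3.67, while Cldn6 rose by 2.26 and the tight junction scaffold Tjp1 by 0.49 on the log2 scale. Of 9 regulators of epithelial-mesenchymal transition 3 were higher and 5 lower (median -0.69). The repressors Snai1 (1.09) and Zeb1 (0.51) rose, Snai2 (-1.53) and the intermediate filament Vim (-0.84) fell, and Grhl1, an activator of epithelial genes, rose (1.60).

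Matrix genes fell broadly. Of 23 tested collagens 2 were higher and 17 lower (median -0.89), and without the 3 libraries 2 and 16 (median -0.90 over the 22 of these genes still tested). Col3a1 was at 4810 to 8347 FPM at pH 7.4 (median 6247) and at 1962 to 3420 FPM at pH 6.0 (median 2600), a log2 fold change of -1.28 (standard error 0.08, edgeR adjusted p = 3.6e-09). It was -1.32 without A021, A022 and A033. Col1a2 was different, since its fall of -4.95 became -0.44 without these libraries and no longer passed the test. Col2a1, of cartilage collagen, had at most 3 counts in every control, and at pH 6.0 it was at 1.62 to 2.52 FPM in sample group 1 and at 7.15 to 13.7 FPM in sample group 3. Col6a3 was the other collagen that rose (3.57), from at most 0.46 FPM to 1.52 to 2.62 FPM. Among its controls only A021 had more than 3 counts, so the size of this change rests on that library. Without A021, A022 and A033 every control had at most 3 counts, and no fold change is given. The basement membrane collagens Col4a1 (-0.18, edgeR adjusted p = 0.12) and Col4a2 (0.04, edgeR adjusted p = 0.69) did not pass the test, but without the 3 libraries Col4a1 was lower (-0.31, edgeR adjusted p = 0.028).

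Laminins, glycoproteins and crosslinkers were higher in 4 of 30 cases and lower in 19, and without the 3 libraries in 3 and 20 (median -1.08 over the same genes). Thbs1 (thrombospondin, which binds TGF-beta) was at 364 to 762 FPM at pH 7.4 (median 568) and at 115 to 360 FPM at pH 6.0 (median 240), a log2 fold change of -1.43 (standard error 0.14, edgeR adjusted p = 4.2e-07). Fn1 (fibronectin) was highest in A021 (129 FPM) and A022 (61.9 FPM), and its log2 fold change was -2.27 with all samples and -1.36 without the 3 libraries. For Tnc (tenascin-C) these values were -3.71 and -2.56, and Lama5, a laminin chain of tubule basement membranes, was at 0.09 (edgeR adjusted p = 0.47). Of 15 matrix proteases and inhibitors 2 were higher and 10 lower (median -1.23), and without the 3 libraries 1 and 8 (median -1.18 over the 14 of these genes still tested). Plat, the tissue plasminogen activator, fell by 1.64 and the inhibitor Timp1 by 1.23 on the log2 scale, while Timp3 rose by 0.60. Mmp2 (-4.10) was at 6.19, 1.93 and 2.78 FPM in A021, A022 and A033 and at most 0.566 FPM in the other controls, and without those 3 it had too few counts to be tested.

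In TGF-beta, BMP and activin signalling 5 of 37 genes were higher and 21 lower (median -0.45). Inhbb, which forms activin B, was at 32.8 to 42.7 FPM at pH 7.4 (median 38.9) and at 2.15 to 7.49 FPM at pH 6.0 (median 5.19), a log2 fold change of -3.00 (standard error 0.17, edgeR adjusted p = 1.9e-09). Tgfb1, a TGF-beta ligand, was at 25.6 to 47.5 FPM (median 36.3) and at 7.54 to 21.5 FPM (median 14.2), a log2 fold change of -1.46 (standard error 0.19, edgeR adjusted p = 8.2e-06). Both ligands lay below all controls in each of the 6 acid samples. The receptor Tgfbr2 (-0.45) and the inhibitory Smad7 (-0.82) fell, and Id3, a target of BMP signals, rose (1.18). Targets of the stretch-sensitive coactivators YAP and TAZ were higher in 2 of 21 cases and lower in 11 (median -0.27). The secreted matrix proteins Ccn2 and Ccn5 fell by 1.13 and 2.90, and the sarcomere-linked Ankrd1 by 0.96 on the log2 scale, while Amotl2 was at -0.00 (edgeR adjusted p = 0.97).

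Of 17 contractile genes 3 were higher and 8 lower (median -0.21). Acta2 (smooth muscle actin, a marker of myofibroblasts) was at 182 to 387 FPM at pH 7.4 (median 243) and at 38.2 to 46.7 FPM at pH 6.0 (median 39.5), a log2 fold change of -2.58 (standard error 0.15, edgeR adjusted p = 2.3e-09). Tagln fell by 1.44, and Tpm1 was at 0.03 (edgeR adjusted p = 0.72). In the acid samples Acta2 was less variable than in the controls. Of 29 integrins and adaptors of focal adhesions 7 were higher and 18 lower (median -0.28), with Zyx (-1.17), Pxn (-0.95) and Itga3 (-0.93) among the falls and Vcl (0.31) and Itga5 (0.35) among the rises.

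Growth factor systems were lower in 14 of 25 cases and higher in 5 (median -0.55), and without the 3 libraries in 13 and 3 (median -0.57). Pdgfrb fell by 1.79 and Egfr by 0.55, and the ligand Tgfa rose by 2.04 on the log2 scale. Pdgfra had at most 3 counts in every acid sample, with 0.116 FPM as the highest level there. Immediate early genes and feedback inhibitors of ERK were higher in 10 of 33 cases and lower in 13 (median -0.26). The median was 0.09 in sample group 1 and -0.47 over the 32 tested in sample group 3. In the test of the interaction 9 of these genes passed, against 15% of all tested genes. Jun was at 108 to 127 FPM at pH 7.4 (median 118) and at 57.5 to 68.9 FPM at pH 6.0 (median 63.3), a log2 fold change of -0.91 (standard error 0.07, edgeR adjusted p = 3.2e-08). The ERK phosphatase gene Dusp6 fell by 2.06 and Ier5 rose by 1.78 on the log2 scale, none of these 3 genes showing overlap. Egr1 did not pass the test (-0.27, edgeR adjusted p = 0.24), and was lower without A021, A022 and A033 (-0.59, edgeR adjusted p = 0.015). It was at 0.26 in sample group 1 and -0.87 in sample group 3 (edgeR adjusted p = 0.0085 for the difference).

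Immune genes included large changes in both directions. Interferon-stimulated and antigen-processing genes were higher in 17 of 34 cases and lower in 9 (median 0.33). Beside Ifi27l2b, the immunoproteasome subunit Psmb8 (1.16) and B2m (0.49), which holds class I molecules at the surface, rose, while the antiviral Mx2 fell (-2.69). Of 24 chemokine, cytokine and NF-kappaB genes 6 were higher and 12 lower (median -0.31). Il33, an alarmin cytokine of barrier cells, went from 3.63 to 17.9 FPM (median 5.91) to 0.12 to 0.881 FPM (median 0.28), a log2 fold change of -4.50 (standard error 0.39, edgeR adjusted p = 1.1e-07) and of -3.77 without the 3 libraries. Of 17 TNF family genes 5 were higher and 9 lower (median -0.73). With sample group 1 alone the median was -0.19, and with sample group 3 alone, which had 16 of them tested, it was -0.29. Tnfrsf25, a death domain receptor, was at 64.7 to 80.7 FPM (median 69.9) and at 9.8 to 15.1 FPM (median 12.3), a log2 fold change of -2.50 (standard error 0.10, edgeR adjusted p = 6.5e-11). Eda2r, a receptor for ectodysplasin, moved the other way (4.97), from at most 0.345 FPM to 2.91 to 6.8 FPM. The size of this change rests on A021 (0.345 FPM) and A022 (0.276 FPM). Without A021, A022 and A033 every control had at most 3 counts, and no fold change is given. Il33, Tnfrsf25 and Eda2r did not overlap between the pH values.

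Clock genes were higher in 9 of 15 cases and lower in 3 (median 0.38), with Ciart, a repressor of the clock, at 2.28. Of 10 nuclear receptor coactivators 3 were higher and 2 lower (median 0.15). Ncoa5, which the study examines, was at 54.3 to 65.8 FPM at pH 7.4 (median 61.7) and at 24.4 to 33.8 FPM at pH 6.0 (median 28.3), a log2 fold change of -1.11 (standard error 0.08, edgeR adjusted p = 2.0e-08). Myom1, the other gene it examines, was at 0.141 to 0.834 FPM (median 0.428) and at 2.57 to 5.85 FPM (median 3.7), a log2 fold change of 3.24 (standard error 0.25, edgeR adjusted p = 3.7e-08). Both groups were apart in each case.

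The sample groups shared the direction of the response more than its size. Fitted alone, sample group 1 had 8459 regulated genes and sample group 3 had 8156, and 6222 of the 9366 genes passed in the same direction in both. In the test of the interaction, 2113 of 14051 genes (15%) differed between the sample groups. Of these, 1439 changed in the same direction with the larger change in sample group 3, 132 with the larger change in sample group 1, and 514 had opposite signs. Dbp, a clock output gene, was at 62.8 to 79.2 FPM in the controls, at 90.4 to 104 FPM in the acid samples of sample group 1 and at 48.3 to 54.7 FPM in those of sample group 3. It thus rose in the former (0.43) and fell in the latter (-0.43, edgeR adjusted p = 0.0013 for the difference), and the 12 samples together showed no call (0.01). Ccn1, a relative of Ccn2, likewise was at 0.19 and -0.73 (edgeR adjusted p = 4.8e-04 for the difference). With all 12 samples it did not pass the test (-0.25), and without A021, A022 and A033 it was lower (-0.41). What a sample group is was not stated in the labels, so the sample group and anything that varied with it cannot be told apart.

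Against NRK-49F cells, the response of NRK-52E cells differed for 6684 of 15202 genes (44%) in a joint fit of all 23 samples with the sample groups as blocks. The pH effect in NRK-52E cells had a median log2 fold change of -0.13 in that fit (3824 genes up and 5747 down), in place of -0.01 in the fit of this line alone. Of the 6684 genes, 3874 were regulated in NRK-52E cells and not in NRK-49F cells, 730 the reverse, 1137 in the same direction in both and 778 in opposite directions. Over all genes in NRK-49F cells 16.2% were higher at pH 6.0 and 16.3% lower, with a median log2 fold change of -0.00. Of the 23 cholesterol genes 4 were higher there and 3 lower (median 0.04), and for 17 of the 23 the difference itself passed the test. The change in NRK-52E cells exceeded that in NRK-49F cells by 2.36 for Insig1 (edgeR adjusted p = 3.6e-13) and 2.30 for Hmgcs1 (9.7e-11) on the log2 scale. The cell cycle lists differed as well. Of the 50 mitosis genes 44 were higher and 0 lower in NRK-49F cells (median 0.85), and 34 differed between the lines, Mki67 by -2.06 (edgeR adjusted p = 1.4e-07) and Cenpf by -2.40 (1.3e-07). Of the 49 replication genes 35 differed. Cdkn1a was higher by 4.05 in the comparison of responses (edgeR adjusted p = 1.3e-11), Jun lower by 1.57 with a rise of 0.57 in NRK-49F cells (1.6e-11), and Glul differed by -1.32 (3.7e-06).

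Several lists had a median of the same sign in both lines. Among them were the integrated stress response (0.63 in NRK-52E and 0.23 in NRK-49F cells) and TGF-beta, BMP and activin signalling (-0.45 and -0.54). The lists of NRF2 and redox genes, collagens and YAP and TAZ targets are described here. NRF2 and redox genes were higher in 22 of 31 cases in NRK-49F cells and lower in 2 (median 0.88). For 22 of the 31 the response differed between the lines, Gclm by 1.30 (edgeR adjusted p = 8.0e-06) and Nqo1 by -0.81 (edgeR adjusted p = 0.0033). Of the 23 collagens, 2 were higher and 12 lower there (median -0.49), and the response differed between the lines for 13 of the 23, though not for Col3a1 (0.11, edgeR adjusted p = 0.53). The YAP and TAZ targets had 1 member higher and 11 lower (median -0.74), and 14 of 21 differed between the lines, with a stronger fall of Ccn2 in NRK-49F cells (a difference of 1.81, edgeR adjusted p = 8.5e-09).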

How the data were processed

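The counts are those deposited by the authors, who aligned reads to the rat genome with HISAT2 2.1.0 and counted them per gene with featureCounts, per the submitters' notes. The labels give build rn6 and the paper rn7. Of 30452 rows, 37 are mitochondrial and were listed at 0 counts, and 6420 have no gene symbol. Another 13 value columns match no label and were not used. Genes were filtered with filterByExpr and scaled by TMM. They were tested in edgeR 4.0.16 (R 4.3.3) by quasi-likelihood with sample group and pH as terms, with Benjamini-Hochberg adjustment over all tested genes. The standard error is the absolute log2 fold change divided by the root of F. DESeq2 1.42.0 served the alternatives by that tool, and Python 3.11.15 with numpy 2.4.6, pandas 2.3.3, scipy 1.17.1 and matplotlib 3.10.9 the rest. The interaction was tested in the same 12 samples, and the difference between cell lines in all 23 with 4 sample groups as blocks.

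A level of at most 3 counts is the detection floor. If a gene stayed there in every sample of a pH, no fold change is given for it. The members and lists were chosen with earlier results of these data known. Of 1480 entries in 49 lists, 1430 matched a symbol and 50 were not analysed here. Names of clones and loci were not counted as symbols, though X4930544D05Rik, a clone name, passed as one. Named genes are the 10 largest rises and 10 largest falls with at least 5 FPM, no overlap and the same call without A021, A022 and A033, then key members of each list, the largest rise and fall of each list with at least 1 FPM, and Ncoa5 and Myom1. Cell type markers are named from their lists, some after their values were seen, and other genes only where the text says so. The share of NRK-49F signal used markers with at least 20 FPM in that line. Alternatives changed the scaling, the filter, the tool, the block, the threshold, the test and the samples, subtracted the NRK-49F signal or thinned the libraries. The scripts were also tested on simulated data. Reads with several map positions can shift counts between near-identical genes, and the strand setting of the counting was not named.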

Additional observations from a re-analysis of the deposited data

Results flagged for a closer look

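In 28 of 376 groups of 6 samples of the genes named in the text, 1 sample lay apart by a gap of more than 0.625 of the group's range. Chance alone sets about 1 in 20 such groups apart, and over all tested genes 8.34% were. Values are FPM. Replicate A035 was the highest at pH 7.4 for Ctsd (952), Rps9 (1738), Fth1 (1315), Phgdh (278), Gars (439), Timp1 (222), Ifi27l2b (6.8), Krt8 (673), Gpx1 (200), Tfeb (77.1), Ctsb (1373), Eif4ebp1 (149) and Lamp1 (848). It was the lowest for Txnip (214), Timp3 (27.4), Pfkfb3 (19.3) and Zeb1 (28.5). A021 was the highest for Col1a2 (54.3), Col6a3 (0.46), Pdgfra (4.86) and Slc4a7 (6.53), A022 for Col2a1 (0.166) and Slc16a3 (5.85), A033 for Arrdc4 (13.4) and A023 for Egr1 (24.6). At pH 6.0, A026 was the highest for Cln3 (10.1) and the lowest for Hk2 (36.9), and A037 the highest for Tnc (0.49).

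Some responses differed between groups of samples. In edgeR tests of the interaction, 2113 genes differed between the sample groups. On the log2 scale, sample group 3 minus sample group 1, the differences were 1.16 for Cdkn1a, 1.36 for Trib3, 1.35 for Hspa5, -1.02 for Glul, -1.46 for Anpep, -0.98 for Inhbb, -0.84 for Dbp, -0.90 for Ccn1, -0.77 for Acaca, -2.16 for Hspa2, 1.55 for Hmox1 and -1.13 for Egr1. Between the cell lines, 6684 genes differed. As NRK-52E minus NRK-49F, the differences were 4.05 for Cdkn1a, 2.36 for Insig1, 2.30 for Hmgcs1, -0.81 for Nqo1, 1.30 for Gclm, -1.32 for Glul, -2.40 for Cenpf, -2.06 for Mki67, 1.81 for Ccn2 and -1.57 for Jun.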

How the results depend on the processing

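Of 28 alternatives, glmTreat against a log2 fold change of 1 lowered the count of regulated genes most, from 9366 to 1940 (698 higher, 1242 lower), and leaving out 1 replicate gave 9041 to 9841. Upper quartile scaling moved the median of all genes by -0.12 on the log2 scale, so that 3648 genes were higher and 5664 lower, and 39.2% of the regulated genes were higher in place of 48.6%. No block gave 8335, DESeq2 9545 and the subtraction of NRK-49F signal 9317. The fit of all 23 samples gave 9571 (3824 higher, 5747 lower), with a median log2 fold change of -0.13 over its own tested genes. The fit without A021, A022 and A033 gave 8406, or 8471 when A035 was left out too, an alternative added after the data were seen. Of 174 regulated genes named in the text, 0 were reversed in any alternative, 78 did not pass glmTreat and 7 did not pass without A021, A022 and A033. Of 98 list counts, 9 moved by over 1.5 times with upper quartile scaling, 6 without the 3 replicates, 12 in sample group 1 alone and 18 in sample group 3 alone. In sample group 3 alone, Cd14 (-0.38) and Dbp (-0.43) passed the test with the opposite sign to all 12 samples, and other named genes changed sign in 1 of the sample groups without passing it there. The difference of NRK-49F signal between pH 7.4 and 6.0, 0.489 percentage points as a median over markers, reversed to -1.15 as a mean. The interaction count was 2119 and 2127 and the count for the cell lines 5977 and 6651 in their alternatives. No paired analysis was possible, since each replicate code occurs at a single pH.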
